A study of Mus musculus with 16 samples.

Results

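The BCL2 family of apoptosis regulators was followed here through 10 genes, found by their symbols in every library: 3 anti-apoptotic genes (*Bcl2*, *Bcl2l1* and *Mcl1*), 2 effectors (*Bax* and *Bak1*) and 5 BH3-only genes (*Bcl2l11*, *Bbc3*, *Pmaip1*, *Bid* and *Bmf*). They are 10 of the 50686 genes counted, chosen by name, and all 10 passed the filter on low counts in all 6 comparisons. As background, the anti-apoptotic proteins hold the effectors BAX and BAK inactive at the outer mitochondrial membrane. BH3-only proteins, made or freed under stress, bind the anti-apoptotic proteins or activate the effectors, which then open the membrane and let out cytochrome c, the trigger of the caspase cascade. In cells transformed by BCR-ABL1, the kinase is known to keep up BCL-XL (from *Bcl2l1*) and MCL1 and to hold BIM (from *Bcl2l11*) down.

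RNA was sequenced from immortalized mouse bone marrow cell lines of the strain C57BL/6N that carry BCR-ABL1p185, an oncogene of B-cell acute lymphoblastic leukaemia. Of the 8 lines, 4 were labelled wildtype, which the study's paper gives as *Cdk8* fl/fl, and 4 were *Cdk8* knockout lines (*Cdk8*Δ/Δ with Vav-Cre), named Cdk8 KO below; CDK8 is a kinase of the Mediator complex. Each line was sampled after 48 h in 0.01% DMSO and after 48 h in 1 µM Senexin B, an inhibitor of CDK8 and CDK19. This gave 4 groups of 4 libraries: wildtype with DMSO, wildtype with Senexin B, Cdk8 KO with DMSO and Cdk8 KO with Senexin B. Vav-Cre acts from the earliest blood cells on, so the knockout lines arose in cells that had lost *Cdk8* before transformation, and each line grew out in culture on its own. All lines were kept in RPMI with 10% FCS. The reads assigned to genes numbered 13145876 in the smallest library and 18349425 in the largest. Values are counts per 1000000 scaled by edgeR's TMM factors (CPM), and values for the 4 lines of a group are given in the order of lines 1 to 4.

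*Cdk8* itself checks the labels. It had 68.7, 61.8, 63.3 and 65.8 CPM in the wildtype lines with DMSO and 35.3, 52.1, 47.1 and 42.8 CPM in the Cdk8 KO lines with DMSO. All 4 Cdk8 KO lines lay below all 4 wildtype lines, as 3.14% of the 13174 genes tested had groups that did not overlap in either direction. With Senexin B the wildtype lines had 89.4, 56.3, 56.8 and 55.2 CPM and the Cdk8 KO lines 43.9, 61.7, 42.9 and 41.2 CPM. Here the groups overlapped, since Cdk8 KO line 2 lay above wildtype lines 2, 3 and 4. The log2 fold change of *Cdk8* was -0.55 in DMSO (edgeR, unadjusted p = 0.00368, adjusted p = 0.897) and -0.44 with Senexin B (unadjusted p = 0.0783, adjusted p = 1.00). With Senexin B it was -0.59 without Cdk8 KO line 2 (unadjusted p = 0.0290) and -0.24 without wildtype line 1. The counts cover the whole gene, with exons outside the deleted part, and reads on the deleted exons were not counted apart.

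The cells carried the RNA of early B cells. All 9 pro-B markers were tested in every comparison, and their summed level ran from 5265 to 7945 CPM with a median of 6660 CPM over the 16 libraries. The most abundant of them was *Igll1*, part of the surrogate light chain, in 9 libraries. The 5 T cell markers summed to at most 1.87 CPM, the 3 erythroid markers to at most 0.573 CPM and the 3 stroma markers to at most 2.20 CPM. The 5 myeloid markers summed to between 0.441 and 24.8 CPM, led by *Lyz2* in 15 libraries, with *Mpo* at 0 in 9 libraries. Of the 2 NK markers *Ncr1* was at 0 in all 16 libraries, while *Klrb1c* brought the sum to 81.4 CPM in Cdk8 KO line 4 with Senexin B. The 3 plasma cell markers summed to between 9.42 and 130 CPM and were highest in Cdk8 KO lines 3 and 4, where *Jchain* was the most abundant of the 3. Among the pro-B markers 1 of 9 had an unadjusted p under 0.05 with Senexin B over all lines in edgeR, beside 4.86% of all genes. This was *Cd79b*, which was lower (log2 fold change -0.37, unadjusted p = 0.0219, adjusted p = 0.854). With the line as a block its adjusted p was 0.0308. In the wildtype lines 2 of 9 were higher with Senexin B, *Vpreb1* (0.56, unadjusted p = 0.0321) and *Igll1* (0.64, unadjusted p = 0.0483), and *Vpreb1* had an interaction of -0.67 (unadjusted p = 0.0470). Of the plasma cell markers *Jchain* was higher in the Cdk8 KO lines in DMSO (2.62, unadjusted p = 0.0393). In edgeR without a block the adjusted p was 1.00 for *Vpreb1* and *Igll1* and 0.897 for *Jchain*. With the block, markers of other cell types had an unadjusted p under 0.05 with Senexin B too, but an adjusted p above it. Over all lines these were *Lyz2* (-0.83, unadjusted p = 0.00709) and *Sdc1* (0.45, unadjusted p = 0.0179), beside 16.4% of all genes. In the Cdk8 KO lines they were *Lyz2* (-1.14), *Jchain* (-0.51), *Klrb1c* (1.42) and *Prdm1* (1.32), beside 10.3% of all genes. In the wildtype lines *Sdc1* was higher (0.65). The part of these markers in the results below was not tested, and in bulk RNA fewer cells of a kind and less RNA per cell cannot be told apart.

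To compare genes, CPM were divided by the exon length in kb. On this scale *Bak1*, one of the 2 effectors, had the highest mean level of the 10 genes, 93.5 ± 23.8 CPM per kb (SD, n = 16 libraries), and lay above *Mcl1* in 16 of 16 libraries. *Mcl1*, whose short-lived protein restrains BAK, followed with 44.7 ± 8.09 CPM per kb. *Bcl2l1*, which encodes BCL-XL, had 37.6 ± 24.2 CPM per kb, *Bid*, whose protein is activated by caspase cleavage, 31.9 ± 11.7 CPM per kb, and *Bax*, the second effector, 30.8 ± 10.9 CPM per kb. Next to each other in this order, these genes did not differ beyond their spread: *Mcl1* was above *Bcl2l1* in 10 of 16 libraries, *Bcl2l1* above *Bid* in 8 and *Bid* above *Bax* in 8. *Bax* lay above the next gene, *Bcl2l11*, in 16 of 16 libraries. *Bcl2l11*, which encodes BIM, had 13.1 ± 3.59 CPM per kb and *Pmaip1*, which encodes NOXA, 7.20 ± 3.11 CPM per kb. *Bbc3*, which encodes PUMA, had 6.00 ± 3.42 CPM per kb, *Bcl2* 4.51 ± 4.86 CPM per kb and *Bmf*, whose protein senses loss of attachment and of growth factors, 3.57 ± 1.60 CPM per kb. Of these last genes *Pmaip1* was above *Bbc3* in 12 of 16 libraries, *Bbc3* above *Bcl2* in 11 and *Bcl2* above *Bmf* in 6. The 16 libraries are 8 lines under both treatments, so these SDs and counts of libraries are not over independent samples. Counting was done without regard to strand, and part of the exons of 4 of the genes is shared with a neighbouring gene: 17.7% for *Bid*, 14.8% for *Bak1*, 12.2% for *Bax* and 6.09% for *Bcl2*.

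**Figure D1:**
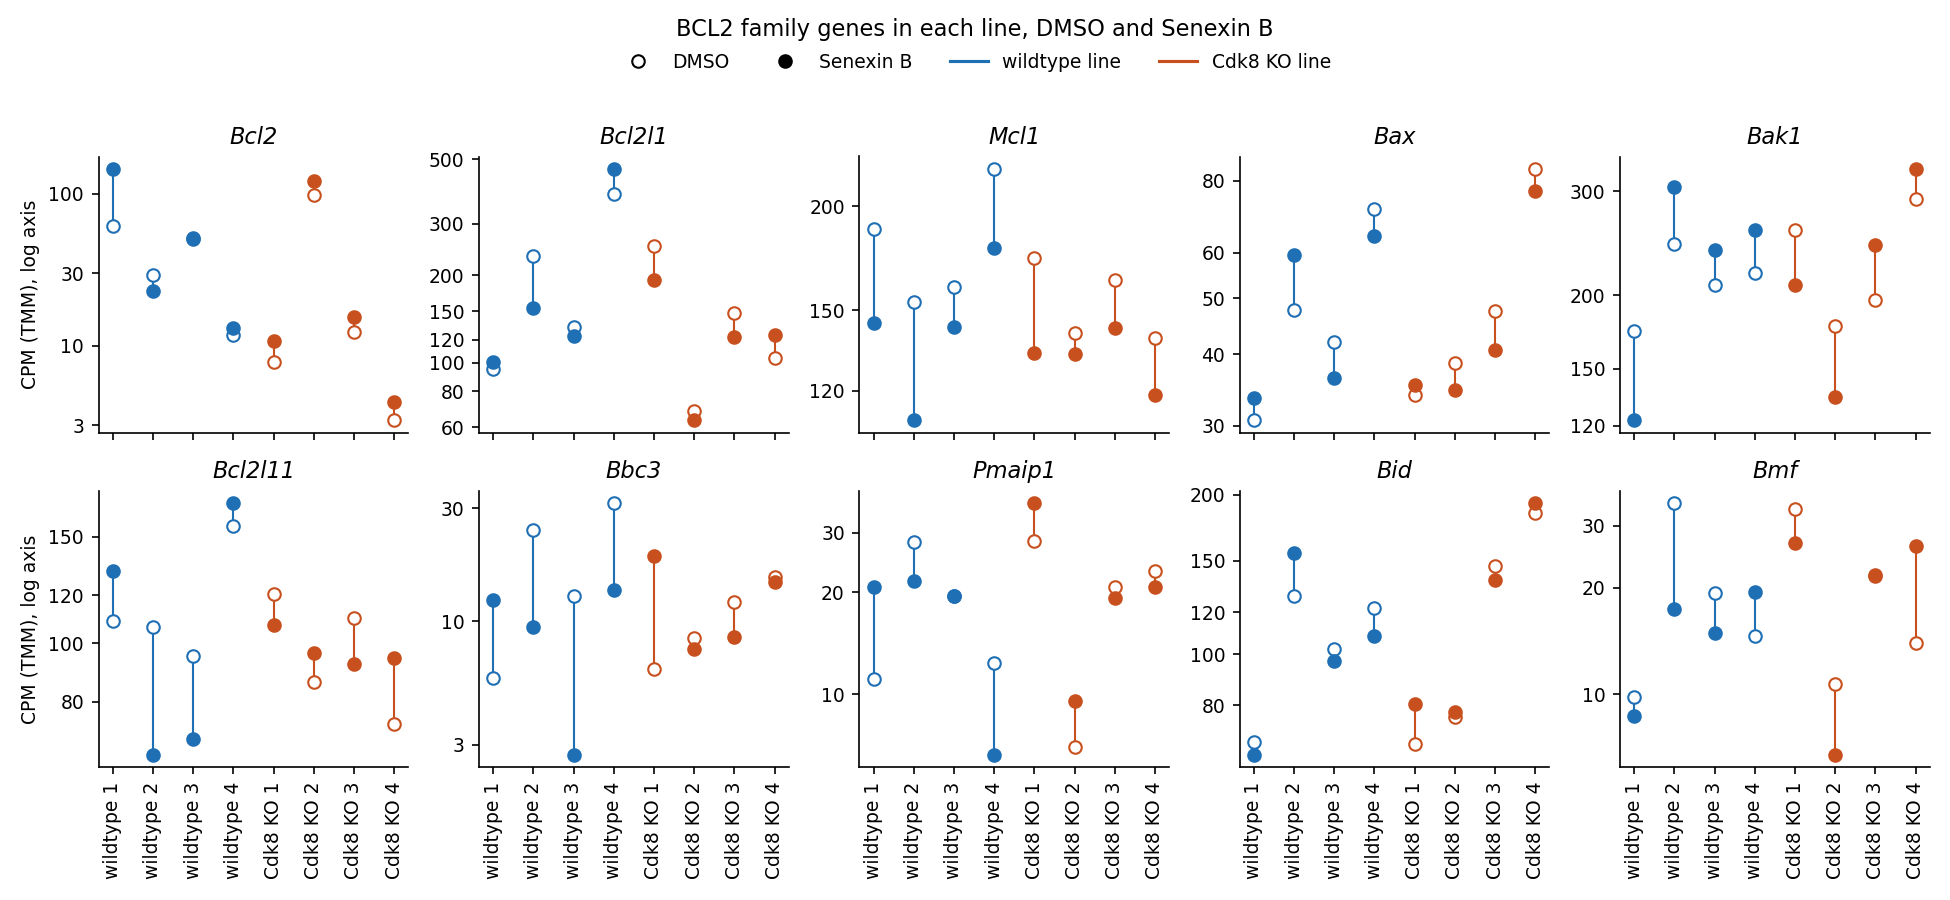
CPM (TMM, log axis) of the 10 BCL2 family genes in each of the 4 wildtype and 4 Cdk8 KO lines, with an open circle for DMSO and a filled circle for Senexin B, joined by a line. *Bcl2* spans 3.24 to 146 CPM between lines, and *Mcl1* has the filled circle below the open one in 8 of 8 lines.

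All 3 anti-apoptotic genes were expressed in every library, in proportions that differed between lines. Of the CPM per kb of *Bcl2*, *Bcl2l1* and *Mcl1* together, *Mcl1* made up between 33.8% and 66.7% (median 56.0%), *Bcl2l1* between 21.0% and 65.3% (median 39.0%) and *Bcl2* between 0.556% and 20.2% (median 2.82%). *Mcl1* had the largest share in 10 of 16 libraries and *Bcl2l1* in the other 6. *Bcl2l1* led under both treatments in wildtype lines 2 and 4 and in Cdk8 KO line 1. In wildtype line 4 it made up 55.7% with DMSO and 65.3% with Senexin B. *Bcl2* was largest in wildtype line 1 with Senexin B, at 19.8%, and in Cdk8 KO line 2 with Senexin B, at 20.2%, and in these 2 lines *Bcl2l1* had its smallest shares.

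**Figure D2:**
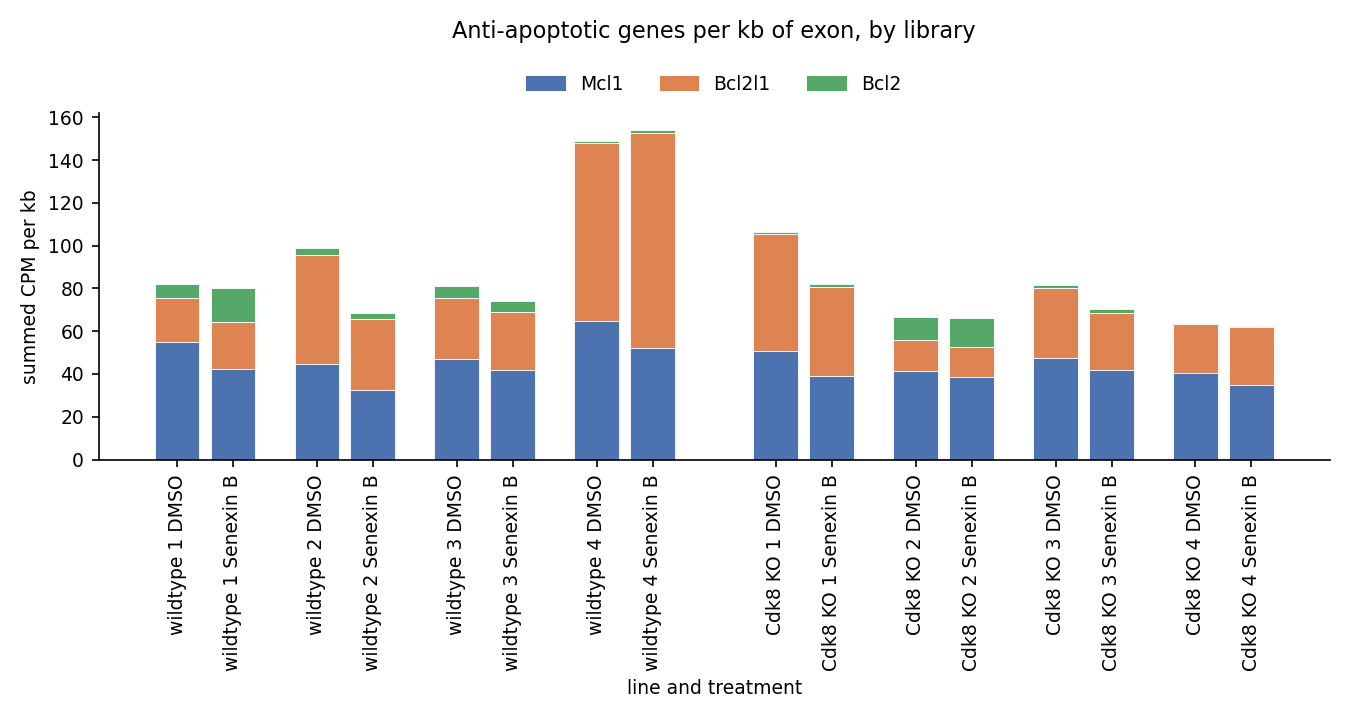
Summed CPM per kb of exon of *Mcl1*, *Bcl2l1* and *Bcl2* in each of the 16 libraries, 1 bar per library, ordered by line and treatment. The share of *Bcl2* is largest in Cdk8 KO line 2 with Senexin B, at 20.2%.

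The genotypes were compared within each treatment, to ask which genes differ where *Cdk8* is deleted. To be called, a gene needed more than a 2-fold difference together with an adjusted p under 0.05, as in the methods of the study. In DMSO edgeR called 0 of the 10 BCL2 family genes and 1 of 13174 genes in all (0.00759%). At an unadjusted p under 0.05 it gave 0 of the 10 and 5.32% of all genes, and DESeq2 called 0 of the 10 and 32 genes in all. With Senexin B in both genotypes edgeR called 0 of the 10 and 0 of 13010 genes (0%). An unadjusted p under 0.05 was met by 0 of the 10 and by 1.55% of all genes, and DESeq2 called 0 of the 10 and 10 genes in all. In neither comparison did the 4 Cdk8 KO lines lie wholly above or below the 4 wildtype lines for any of the 10, against 3.14% of all genes in DMSO and 0.999% with Senexin B. Of the 10 log2 fold changes in DMSO, 5 were above 0 and 5 below, with a median of -0.10 beside 0.00 over all genes. With Senexin B 4 were above 0 and 6 below, with a median of -0.03 beside 0.00 over all genes.

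*Bcl2*, the founding anti-apoptotic gene, lies on chromosome 1 from 106538178 to 106714274. It had 61.3, 29.3, 51.3 and 11.8 CPM in the wildtype lines with DMSO and 7.86, 98.0, 12.4 and 3.24 CPM in the Cdk8 KO lines with DMSO. Cdk8 KO lines 1 and 4 lay below all wildtype lines and line 3 just above wildtype line 4, while line 2 was above every other line. The log2 fold change was -0.33 with a standard error of 1.00 (edgeR, unadjusted p = 0.749, adjusted p = 0.979). Without Cdk8 KO line 2 it was -2.30 (unadjusted p = 0.00987, adjusted p = 0.968), without line 4 it was 0.0403, and over all alternatives the adjusted p ran from 0.962 to 1.00. With Senexin B the wildtype lines had 146, 23.0, 50.6 and 13.2 CPM and the Cdk8 KO lines 10.7, 122, 15.5 and 4.25 CPM. The same Cdk8 KO line stood apart there, and wildtype line 1 was the highest. Its log2 fold change was -0.61 (unadjusted p = 0.593, adjusted p = 1.00), and without Cdk8 KO line 2 it was -2.51 (unadjusted p = 0.0247), without wildtype line 1 0.39. The comparisons in DMSO and with Senexin B use the same 8 lines and are not independent of each other.

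*Bcl2l1* had 95.0, 232, 133 and 381 CPM in the wildtype lines with DMSO and 252, 68.4, 149 and 104 CPM in the Cdk8 KO lines with DMSO. Wildtype line 4 was the highest and Cdk8 KO line 2 the lowest, and the others were mixed. The log2 fold change was -0.55 in DMSO (edgeR, unadjusted p = 0.308, adjusted p = 0.916) and -0.74 with Senexin B (unadjusted p = 0.199, adjusted p = 1.00). Without wildtype line 4 these values were -0.11 and -0.00, and without Cdk8 KO line 1 they were -0.97 and -1.01. *Mcl1* had 188, 153, 160 and 221 CPM in the wildtype lines with DMSO and 173, 141, 163 and 139 CPM in the Cdk8 KO lines with DMSO. Lines 2 and 4 of the Cdk8 KO group lay below all wildtype lines, and lines 1 and 3 among them. The log2 fold change of *Mcl1* was -0.23 in DMSO (unadjusted p = 0.150, adjusted p = 0.908) and -0.13 with Senexin B (unadjusted p = 0.470, adjusted p = 1.00). Without wildtype line 4 these were -0.12 and -0.01, and without wildtype line 2 they were -0.31 and -0.23.

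The effectors, which form the pores in the mitochondrial membrane, overlapped widely between the genotypes. *Bax* ran from 30.7 to 71.4 CPM in the wildtype lines with DMSO and from 33.9 to 83.8 CPM in the Cdk8 KO lines with DMSO, with a log2 fold change of 0.09 (edgeR, unadjusted p = 0.795). *Bak1* ran from 174 to 244 CPM and from 177 to 291 CPM, with a log2 fold change of 0.13 (unadjusted p = 0.494). Cdk8 KO line 4 had the highest *Bax*, *Bak1* and *Bid* of the 8 lines with DMSO, and without it the 3 log2 fold changes were -0.26, -0.01 and -0.12.

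Among the BH3-only genes *Bbc3*, a target of p53, had the largest difference between the genotypes in DMSO. With Senexin B the largest was that of *Bmf* (0.43). With the replicate number as a block it was that of *Bbc3* (0.50), against 0.34 for *Bmf*. *Bbc3* had 5.72, 24.2, 12.8 and 31.4 CPM in the wildtype lines with DMSO and 6.30, 8.52, 12.1 and 15.3 CPM in the Cdk8 KO lines with DMSO. Wildtype lines 2 and 4 were above all Cdk8 KO lines, and wildtype line 1 was below all of them. Its log2 fold change was -0.81 with a standard error of 0.51 (edgeR, unadjusted p = 0.153, adjusted p = 0.908), and without wildtype line 1 it was -1.11 (unadjusted p = 0.0262, adjusted p = 0.431, the smallest of the alternatives, with 0.999 the largest). Without wildtype line 4 it was -0.44. With Senexin B the wildtype lines had 12.3, 9.41, 2.73 and 13.5 CPM and the Cdk8 KO lines 18.9, 7.63, 8.56 and 14.6 CPM. The order of the groups was the other way round there, with a log2 fold change of 0.39 (unadjusted p = 0.460, adjusted p = 1.00), and 0.0855 without wildtype line 3 and 0.61 without wildtype line 4. *Bcl2l11*, which marks cells that lose BCR-ABL1 signalling, ran from 95.3 to 156 CPM in the wildtype and from 73.6 to 121 CPM in the Cdk8 KO lines with DMSO, with a log2 fold change of -0.25 (unadjusted p = 0.245), and -0.0899 without wildtype line 4. *Pmaip1*, whose protein binds MCL1, ran from 11.0 to 28.3 and from 6.95 to 28.3 CPM, with a log2 fold change of 0.16 (unadjusted p = 0.739). *Bid* ran from 68.0 to 129 and from 67.4 to 185 CPM, with a log2 fold change of 0.18 (unadjusted p = 0.633). *Bmf* ran from 9.83 to 34.7 and from 10.7 to 33.4 CPM, with a log2 fold change of 0.02 (unadjusted p = 0.965). None of these 4 genes separated the genotypes. With Senexin B *Bmf* had a log2 fold change of 0.43 (unadjusted p = 0.346), and without Cdk8 KO line 2 it was 0.73 (unadjusted p = 0.0420, adjusted p = 0.993; range over alternatives 0.898 to 1.00). Without wildtype line 1 it was 0.24.

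Senexin B was compared with DMSO within each genotype and over all lines, to ask what the inhibitor changes with and without *Cdk8*. In the wildtype lines edgeR called 0 of the 10 BCL2 family genes and 0 of 12989 genes (0%), and an unadjusted p under 0.05 was met by 0 of the 10 and 3.8% of all genes. DESeq2 called 0 of the 10 and 19 genes in all. In the Cdk8 KO lines edgeR called 0 of the 10 and 0 of 13285 genes (0%), with 0 of the 10 and 1.83% of all genes at an unadjusted p under 0.05, and DESeq2 called 0 genes. Over all lines edgeR called 0 of the 10 and 0 of 14164 genes (0%), with 1 of the 10, *Mcl1*, and 4.86% of all genes at an unadjusted p under 0.05. DESeq2 called 0 of the 10 and 17 genes in all.

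The 2 libraries of a line share its background, and with the line as a block edgeR called more genes, though 0 of the 10. For the wildtype lines the block gave 45 called genes (0.346%) and an unadjusted p under 0.05 in 1 of the 10 and in 10.3% of all genes. In the Cdk8 KO lines it gave 7 called genes (0.0527%) and an unadjusted p under 0.05 in 2 of the 10 and in 10.3% of all genes. Over all lines it gave 134 called genes (0.946%) and an unadjusted p under 0.05 in 1 of the 10 and in 16.4% of all genes. The comparisons within a genotype use the same libraries as the one over all lines. The median log2 fold change of the 10 over all lines was -0.05 beside 0.01 over all genes, with 4 above 0 and 6 below.

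*Mcl1* was lower with Senexin B in every line. Wildtype lines had 188, 153, 160 and 221 CPM with DMSO and 145, 111, 143 and 178 CPM with Senexin B. In the Cdk8 KO lines it had 173, 141, 163 and 139 CPM with DMSO and 133, 133, 143 and 119 CPM with Senexin B. Each line was lower with Senexin B than with DMSO, while the groups overlapped because the lines differ in level. The changes per line, in log2 of CPM + 1, were -0.37, -0.47, -0.16 and -0.31 in the wildtype and -0.38, -0.09, -0.19 and -0.23 in the Cdk8 KO lines. Of the 10 BCL2 family genes 1 was lower in all 8 lines, as were 2.59% of all genes, and 0 of the 10 were higher in all 8 lines, as were 1.96% of all genes. Within a genotype, lower in all 4 lines was again 1 of the 10, against 9.46% of all genes in the wildtype and 10.3% in the Cdk8 KO lines.

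Over all lines the log2 fold change of *Mcl1* was -0.27 with a standard error of 0.11 (edgeR, unadjusted p = 0.0190, adjusted p = 0.854; lower in 8 of 8 lines), so it was not called. With the line as a block the log2 fold change was -0.28 (unadjusted p = 0.00197, adjusted p = 0.0625). DESeq2 with the line as a block, chosen after seeing the data, gave -0.28 with an adjusted p of 0.00603. In that fit an adjusted p under 0.05 was met by 1 of the 10 BCL2 family genes and by 5.79% of all genes. Over all alternatives the log2 fold change stayed between -0.32 and -0.22 and the adjusted p ran from 0.00603 to 1.00. No alternative reached a fold change of 2. By genotype the log2 fold change was -0.31 in the wildtype lines (edgeR, unadjusted p = 0.137, adjusted p = 1.00) and -0.22 in the Cdk8 KO lines (unadjusted p = 0.0814, adjusted p = 1.00). With the block the unadjusted p was 0.0487 and 0.0411, and the adjusted p 0.479 and 0.459. The wildtype value was -0.20 without the DMSO library of line 4 and -0.44 without its Senexin B library.

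*Bcl2* was higher with Senexin B in 4 of 4 Cdk8 KO lines, with changes per line of 0.40, 0.32, 0.30 and 0.31 in log2 of CPM + 1. In that direction 1 of the 10 BCL2 family genes and 8.89% of all genes moved in all 4 lines. Wildtype changes were 1.23, -0.34, -0.02 and 0.14, so only line 1 stood out. The log2 fold change in the Cdk8 KO lines was 0.33 (edgeR, unadjusted p = 0.806, adjusted p = 1.00). With the line as a block it was 0.36 (unadjusted p = 0.00899, adjusted p = 0.305, the smallest of the alternatives, with 1.00 the largest). Levels of *Bcl2* differ so much between these lines that without the Senexin B library of line 2 the unblocked value was -1.59, and without the DMSO library of line 2 it was 2.29. Wildtype lines had a log2 fold change of 0.61 (unadjusted p = 0.447), and without the Senexin B library of line 1 it was -0.40, without that of line 4 0.93. With the line as a block the wildtype value was 0.27 (unadjusted p = 0.311). Over all lines the log2 fold change was 0.46 (unadjusted p = 0.561), and 0.31 with the block (unadjusted p = 0.0542, adjusted p = 0.318). *Bcl2l1* was lower in 5 of 8 lines, with a log2 fold change of -0.09 over all lines (unadjusted p = 0.808).

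**Figure D3:**
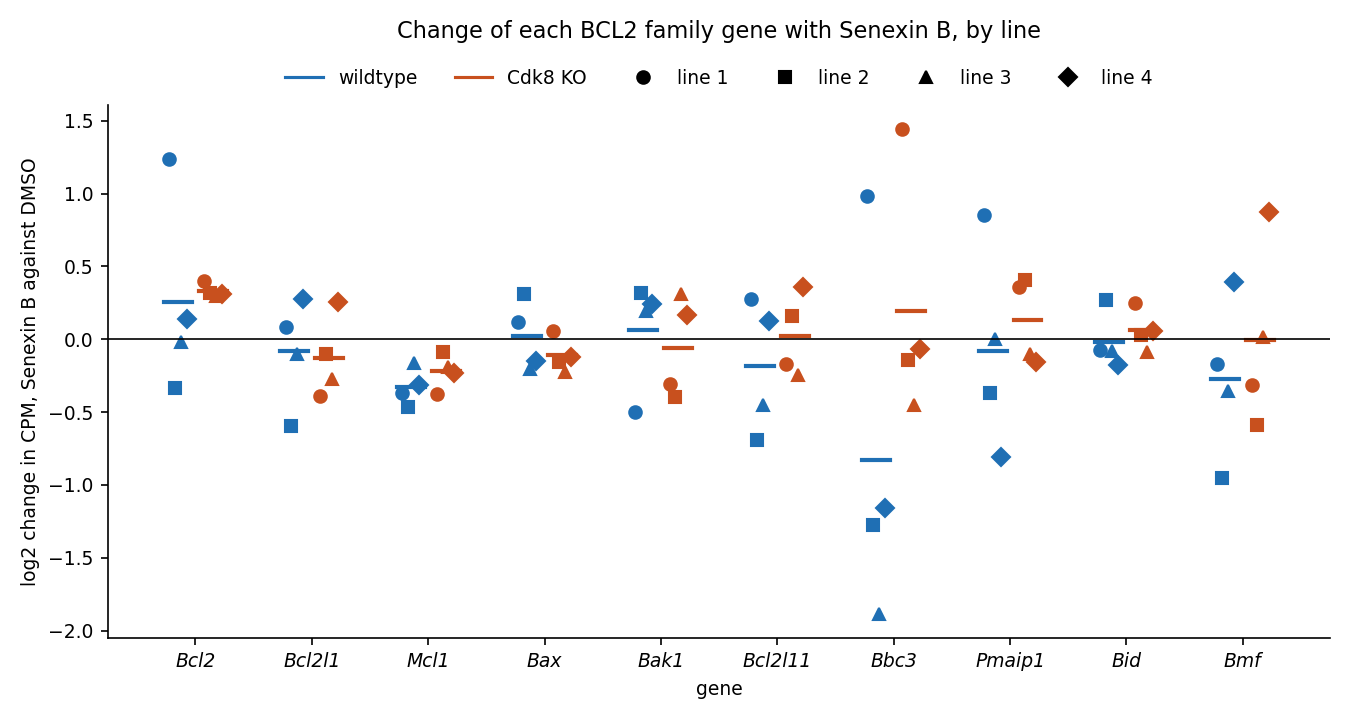
Change of each BCL2 family gene with Senexin B, as log2 of CPM + 1 in Senexin B minus DMSO, with 1 point per line (4 wildtype, 4 Cdk8 KO, line number by symbol) and a bar at the mean of the 4 lines of a genotype. The 8 points of *Mcl1* all lie below 0, between -0.47 and -0.09, and those of *Bbc3* run from -1.88 to 1.44.

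*Bbc3* had the widest changes with Senexin B. The changes per line were 0.99, -1.27, -1.88 and -1.16 in the wildtype and 1.44, -0.14, -0.45 and -0.07 in the Cdk8 KO lines, in log2 of CPM + 1. It was lower in wildtype lines 2, 3 and 4, higher in line 1 of both genotypes, and close to 0 in Cdk8 KO lines 2 and 4. In the wildtype lines the log2 fold change was -0.95 with a standard error of 0.60 (edgeR, unadjusted p = 0.148, adjusted p = 1.00), and without the DMSO library of line 1 it was -1.26 (unadjusted p = 0.0478, adjusted p = 0.788; range over alternatives 0.347 to 1.00). Without the DMSO library of wildtype line 4 it was -0.57. In the Cdk8 KO lines it was 0.23 (unadjusted p = 0.555), and over all lines -0.37 (unadjusted p = 0.380), with values from -0.53 to -0.15 when 1 library was left out. The other effector and BH3-only genes moved in no common direction. Of the 8 lines *Bax* was lower in 5, *Bak1* in 3, *Bcl2l11* in 4, *Pmaip1* in 4, *Bid* in 4 and *Bmf* in 5. The largest change of a line was 0.31 for *Bax*, -0.50 for *Bak1*, -0.69 for *Bcl2l11*, 0.85 for *Pmaip1*, 0.27 for *Bid* and -0.95 for *Bmf*, in log2 of CPM + 1.

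Whether Senexin B acted differently in the genotypes was tested as an interaction over all 16 libraries. edgeR called 0 of the 10 BCL2 family genes and 0 of 14164 genes (0%), and an unadjusted p under 0.05 was met by 0 of the 10 and 0.473% of all genes. DESeq2 called 0 genes. With the line as a block edgeR called 0 genes as well, and an unadjusted p under 0.05 was met by 0 of the 10 and by 459 of 14164 genes. The largest value among the 10 was that of *Bbc3*, with a log2 difference of 1.20 and a standard error of 0.76 (unadjusted p = 0.136, adjusted p = 1.00). Without the DMSO library of wildtype line 1 it was 1.496 (unadjusted p = 0.0488), and without that of wildtype line 4 it was 0.82. For *Mcl1* the log2 difference was 0.10 (unadjusted p = 0.644) and for *Bcl2* -0.27 (unadjusted p = 0.870), which was 0.10 with the line as a block.

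Most of the variation of the family lay between lines. *Bcl2* and *Bcl2l1* varied most over the 16 libraries, with an SD of 1.58 and 0.80 in log2 of CPM + 1, and *Mcl1* least, with 0.25. The SD of the 8 line means was 1.62 for *Bcl2*, against an SD of 0.45 for its changes with Senexin B. For *Bid* these values were 0.53 and 0.16, and for *Bcl2l1* 0.81 and 0.31. For *Bbc3* the order was reversed, with an SD of 0.53 between line means and 1.13 between changes. *Bcl2l11* had 0.34 and 0.37, *Bak1* 0.37 and 0.34, and *Bmf* 0.60 and 0.57. A difference between 2 libraries varies more than their mean even where lines do not differ. A larger SD of changes, as for *Bbc3* and *Bcl2l11*, therefore does not by itself show where most of the variation lay. The genes most like *Bcl2* over the 16 libraries, among 12560 genes with a mean of at least 1 CPM, were *Slc37a1* (Pearson r = 0.950), *Abtb2* (r = 0.927) and *Iqgap2* (r = 0.925). Those most like *Bcl2l1* were *Btbd3* (r = 0.884), *Ddc* (r = 0.872) and *Crisp1* (r = 0.871). The 16 libraries are 8 lines sampled under both treatments, so these values describe the lines and have no p.

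All 45 pairs of the 10 genes were compared over the means of the 8 lines, with two-sided exact permutation tests and adjustment over the 45. The correlation r was above 0 in 26 pairs and below 0 in 19. An unadjusted p under 0.05 was reached by 10 pairs, and an adjusted p under 0.05 by 0; pairs of other genes were not counted. Of the 10 pairs, 5 are described in full, and these are not the 5 with the smallest p. Among the others were *Bak1* with *Bid* (Pearson r = 0.821, exact permutation p = 0.0126, adjusted p = 0.142) and *Bax* with *Bbc3* (r = 0.790, exact permutation p = 0.0208, adjusted p = 0.150). The pair with the smallest p was *Mcl1* with *Bcl2l11* (Pearson r = 0.908, exact permutation p = 0.00268, adjusted p = 0.121; Spearman rho = 0.833, p = 0.0154, adjusted p = 0.231). Without wildtype line 4 and Cdk8 KO line 4, the lines farthest from the median of *Mcl1*, r was 0.707 (exact permutation p = 0.108). *Bcl2* ran against *Bak1* (r = -0.846, exact permutation p = 0.00804, adjusted p = 0.121; rho = -0.762, p = 0.0368, adjusted p = 0.331). Without wildtype line 1 and Cdk8 KO line 2, the lines with the most *Bcl2*, r was -0.536 (exact permutation p = 0.290). *Bak1* and *Bmf* had r = 0.7998 (exact permutation p = 0.0217, adjusted p = 0.150; rho = 0.548, p = 0.171, adjusted p = 0.453), and without wildtype line 1 and Cdk8 KO line 2 r was -0.00308 (exact permutation p = 0.994). *Bax* and *Bid* ran together (r = 0.852, exact permutation p = 0.00806, adjusted p = 0.121; rho = 0.905, p = 0.00456, adjusted p = 0.103), and without wildtype line 4 and Cdk8 KO line 4 r was 0.932 (exact permutation p = 0.00278). *Pmaip1* and *Bmf* had r = 0.779 (exact permutation p = 0.0256, adjusted p = 0.150; rho = 0.952, p = 0.00114, adjusted p = 0.0513), and without wildtype line 4 and Cdk8 KO line 2 r was 0.921 (exact permutation p = 0.0139).

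The promoter of *Mcl1* and 1 promoter of *Bcl2l11* are printed. *Mcl1* was lower with Senexin B in every line, and *Bcl2l11* was the gene most like it over the lines among the other 9 of the family. RefSeq promoters (GRCm38.p6) of 300 bases, from 250 before to 50 after the start of the gene, were searched on both strands for TTCNNNGAA (bound by STAT factors), CACGTG (MYC), GTAAACA (FOXO) and TGACG (part of the site of ATF and CREB factors). Of the 32851 promoters searched, 8.30% held TTCNNNGAA, 7.15% CACGTG, 3.65% GTAAACA and 20.8% TGACG. The promoter of *Mcl1*, chr3:95658471-95658770 on the plus strand, held TGACG 1 time, read on the other strand as CGTCA. The printed promoter of *Bcl2l11*, chr2:128125788-128126087 on the plus strand, held GTAAACA 1 time. Another promoter of *Bcl2l11*, chr2:128127325-128127624 on the plus strand, is not printed and had 0 matches to each of these motifs. The matches are in capitals; they describe the letters and say nothing of binding.
Mcl1: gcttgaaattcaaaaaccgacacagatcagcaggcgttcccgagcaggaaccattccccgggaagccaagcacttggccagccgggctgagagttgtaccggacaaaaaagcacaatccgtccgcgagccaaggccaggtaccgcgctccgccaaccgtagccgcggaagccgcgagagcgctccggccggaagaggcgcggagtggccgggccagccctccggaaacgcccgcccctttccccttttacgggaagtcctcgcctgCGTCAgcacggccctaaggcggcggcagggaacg
Bcl2l11: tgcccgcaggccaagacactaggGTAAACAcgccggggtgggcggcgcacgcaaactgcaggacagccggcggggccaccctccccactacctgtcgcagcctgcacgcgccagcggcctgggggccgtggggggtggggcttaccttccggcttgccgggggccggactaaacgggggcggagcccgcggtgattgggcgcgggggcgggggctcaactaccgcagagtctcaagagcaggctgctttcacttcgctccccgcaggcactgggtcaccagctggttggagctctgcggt

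The rest of the pathway was read from 7 lists of 64 genes. At the limits for a call edgeR without a block found 0 of them in all 6 comparisons. In DMSO 55 were tested and 4 had an unadjusted p under 0.05, 2 higher and 2 lower in the Cdk8 KO lines, where 5.32% of all genes did. Of the 15 other BCL2 family genes 8 passed the filter on low counts in DMSO, and *Bcl2a1a* and *Bcl2l10* had 0 counts in all 16 libraries. *Ddit3*, the stress factor CHOP that can raise *Bcl2l11* and *Bbc3*, had 162, 175, 184 and 354 CPM in the wildtype lines and 75.3, 89.0, 98.3 and 31.9 CPM in the Cdk8 KO lines with DMSO. All 4 Cdk8 KO lines were below all 4 wildtype lines, and 3.14% of all genes had groups that did not overlap in either direction. With Senexin B they overlapped, with 528, 55.8, 35.8 and 61.4 CPM in the wildtype and 299, 134, 60.7 and 34.7 CPM in the Cdk8 KO lines. In DMSO its log2 fold change was -1.57 (edgeR, unadjusted p = 0.00343, adjusted p = 0.897), and DESeq2 called it (-1.58, adjusted p = 0.0334; range over alternatives 0.0334 to 0.999). *Bcl6*, a repressor that B cells use against p53, was lower (-0.92, unadjusted p = 0.0313), and *Rps6ka1*, a kinase that marks BIM for removal, was higher in the Cdk8 KO lines (0.79, unadjusted p = 0.0151). The adjusted p of these 2 was 0.897 in edgeR. With Senexin B in both genotypes and in the interaction 0 of 55 tested had an unadjusted p under 0.05, beside 1.55% and 0.473% of all genes. With the line as a block the interaction had 3 of 55, beside 459 of 14164 genes.

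For Senexin B over all lines 5 of 55 tested genes of these lists had an unadjusted p under 0.05, 1 higher and 4 lower, beside 4.86% of all genes. In the wildtype lines 3 of 54 did, all lower, beside 3.8% of all genes, and in the Cdk8 KO lines 1 of 54, higher, beside 1.83%. By list the median log2 fold change over all lines lay between -0.12 (death receptors and adaptors) and -0.02 (transcription factors of BCL2 family genes), beside 0.01 over all genes. With the line as a block 4 of 55 had an adjusted p under 0.05, 2 higher and 2 lower, as did 373 of 14164 genes. *Bcl6* had 2.54, 3.97, 3.06 and 5.81 CPM in the wildtype and 1.87, 2.07, 2.79 and 1.33 CPM in the Cdk8 KO lines with DMSO. With Senexin B it had 3.96, 5.81, 5.35 and 12.01 CPM and 3.16, 3.64, 6.92 and 4.60 CPM, higher in 8 of 8 lines, as 1.96% of all genes were. Its log2 fold change over all lines was 1.00 (edgeR, unadjusted p = 0.00225, adjusted p = 0.574), and 0.95 with the block (adjusted p = 0.00919). In the Cdk8 KO lines alone it was 1.18 (unadjusted p = 0.00942, adjusted p = 1.00), and with the block the adjusted p in edgeR was 0.177. DESeq2 with the block, chosen after seeing the data, called *Bcl6* in these lines (1.17, adjusted p = 0.0444). *Trib2*, a pseudokinase, was higher in 8 of 8 lines (1.05, adjusted p = 1.00) and was called with the block (1.07, adjusted p = 0.0399). Without the Senexin B library of wildtype line 1 the unblocked value was 0.68, under the limit of a 2-fold difference, and without the DMSO library of Cdk8 KO line 2 it was 1.35.

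*Bnip3l*, a BCL2 relative of mitophagy, was lower in 8 of 8 lines, as 2.59% of all genes were (log2 fold change -0.56 in edgeR, adjusted p = 0.759; -0.57 with the block, adjusted p = 0.0132). *Casp9*, the caspase of the apoptosome, was lower in 8 of 8 lines as well (-0.54, adjusted p = 0.912; -0.60 with the block, adjusted p = 0.0399). So were *Casp8*, which cleaves BID (-0.35, unadjusted p = 0.0199; with the block, adjusted p = 0.0530, and 0.00784 in DESeq2 with the block), and *Nfkb1* (-0.26, unadjusted p = 0.0138; with the block, adjusted p = 0.0920, and 0.0241 in DESeq2 with the block). In the wildtype lines alone the log2 fold changes were -0.63 for *Bnip3l*, -0.45 for *Casp8* and -0.34 for *Nfkb1*, each with an adjusted p of 1.00 in edgeR. Over the alternatives the adjusted p over all lines ran from 6.90e-05 to 1.00 for *Bnip3l*, from 0.00283 to 1.00 for *Casp9*, from 4.10e-05 to 1.00 for *Bcl6* and from 0.000628 to 1.00 for *Trib2*. The lists of proteins released from mitochondria and of inhibitor of apoptosis proteins held 0 of 8 and 0 of 5 genes with an unadjusted p under 0.05 in every comparison in edgeR without a block.

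These results have limits. Each group holds 4 lines, and differences between lines, which grew out separately, are larger than most effects of genotype or Senexin B, so a change smaller than that spread would be missed without the pairing of libraries. The wildtype and Cdk8 KO lines are not pairs, and Vav-Cre lines have no Cre control among these libraries. RNA does not show the amount, cleavage or binding of BCL2 family proteins, and *Mcl1*, *Bcl2l1* and *Bcl2l11* are spliced into forms that gene counts do not separate. Only 48 h was sampled, with 1 dose.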

How the data were processed

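The counts were made by the authors before they were deposited: reads trimmed with Trimmomatic, aligned with STAR to the mouse genome GRCm38 and counted per gene over exons of GENCODE M13 with featureCounts, without regard to strand. Here the counts of 50686 genes in 16 libraries were tested with edgeR 4.0.16 (TMM factors, filterByExpr, robust quasi-likelihood F test) in R 4.3.3, with Benjamini-Hochberg adjustment over all genes tested; all adjusted and unadjusted p without another name are from it. Standard errors are the log2 fold change divided by the square root of F. DESeq2 1.42.0 was the other tool. Alternatives were RLE factors, 2 other filters on low counts, no limit on the fold change, all 16 libraries in 1 fit, each library left out in turn, and the replicate number as a block; DESeq2 with that block was added after seeing the data. The scripts were tested on simulated data.

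The labels give replicate numbers, and that the same number means the same line was checked on the counts. After the group means were removed, libraries of the same number correlated at 0.593 to 0.868 over 14164 genes, and libraries of different numbers at -0.552 to 0.208. For the genotypes the numbers pair unrelated lines, so the block there is only an alternative.

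The 10 genes and the other lists were chosen with earlier results of these data known. All 10 are named; the change of a gene of another list is given only where its adjusted p, or its unadjusted p in edgeR, is under 0.05, and not every such gene is named. *Bcl6*, *Trib2*, *Bnip3l*, *Casp9*, *Casp8*, *Nfkb1*, *Ddit3* and *Rps6ka1* were thus chosen after the values were seen. Single values far from the other 3 of a group were found with Dixon's test (critical Q 0.829), which by chance names about 1 in 20 groups of normally distributed values.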

Additional observations from a re-analysis of the deposited data

Results flagged for a closer look

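Dixon's test over 20 genes in 4 groups named 11 of 80 groups of 4 values. About 1 in 20 is expected by chance for independent groups of normally distributed values. Here each line recurs under both treatments, and some of the genes were chosen after their values were seen. The 11 of 80 can therefore not be set against that share. Among the 10 BCL2 family genes, *Bcl2* in Cdk8 KO line 2 lay far above the other 3 lines, with 98.0 CPM in DMSO and 122 CPM with Senexin B. *Bcl2l1* was high in wildtype line 4 with Senexin B (462 CPM), *Bax* was high in Cdk8 KO line 4 with Senexin B (76.9 CPM), and *Pmaip1* was low in wildtype line 4 with Senexin B (6.62 CPM).

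Outside the family, *Cdk8* was high in wildtype line 1 (89.4 CPM) and in Cdk8 KO line 2 (61.7 CPM), both with Senexin B. *Ddit3* was high in wildtype line 4 with DMSO (354 CPM) and in wildtype line 1 with Senexin B (528 CPM). *Casp8* was high in Cdk8 KO line 1 with DMSO (204 CPM), and *Nfkb1* was low in Cdk8 KO line 2 with Senexin B (123 CPM).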

How the results depend on the processing

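For the genotypes in DMSO edgeR called 1 gene. DESeq2 called 32, a filter of at least 10 counts in every library 0, the replicate block 0, and each fit without 1 library 0. With Senexin B in both genotypes edgeR called 0 genes, DESeq2 10, the fit without a filter 1 and all 16 libraries in 1 fit 1. For Senexin B in the wildtype lines edgeR called 0, DESeq2 19, the fit without a filter 3, the replicate block 45 and DESeq2 with the block 180. In the Cdk8 KO lines edgeR called 0, the replicate block 7 and DESeq2 with the block 77. Over all lines edgeR called 0, DESeq2 17, the filter of at least 10 counts 1, the replicate block 134 and DESeq2 with the block 183, and fits without 1 library called 0 to 5. The block changed no other call.

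Of the 10 BCL2 family genes, edgeR gave 0 with an unadjusted p under 0.05 for Senexin B in the wildtype lines, the replicate block 1 and DESeq2 with the block 2. In the Cdk8 KO lines these were 0, 2 and 1. Without 1 library the number ran from 0 to 1 for the genotypes in DMSO, from 0 to 2 for the genotypes with Senexin B, from 0 to 1 in the wildtype lines and from 0 to 1 for the interaction.

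Most log2 fold changes of the 10 genes took the other sign without some library: 6 of 10 for the genotypes in DMSO, 6 with Senexin B, and for Senexin B 8 in the wildtype lines, 9 in the Cdk8 KO lines, 8 over all lines and 9 in the interaction. The fits without a library had no block. For Senexin B and the interaction, the other library of that line therefore stayed in without its pair, and the level of the line entered the value. Those counts thus do not describe the changes within lines. The log2 fold changes that took the other sign follow for genes whose values the text prints. For the genotypes in DMSO they ran from -2.30 to 0.0403 for *Bcl2*, from -0.26 to 0.34 for *Bax*, from -0.00544 to 0.23 for *Bak1*, from -0.0670 to 0.46 for *Pmaip1*, from -0.12 to 0.37 for *Bid* and from -0.35 to 0.44 for *Bmf*. With Senexin B *Bcl2* ran from -2.51 to 0.39. For Senexin B *Bcl2* ran from -0.40 to 0.93 in the wildtype lines, from -1.59 to 2.29 in the Cdk8 KO lines and from -0.36 to 1.34 over all lines. *Bbc3* ran from -0.0462 to 0.47 in the Cdk8 KO lines and *Bcl2l1* from -0.44 to 0.11 over all lines. In the interaction *Bcl2* ran from -2.18 to 1.69, with 0.10 for the replicate block and 0.12 for DESeq2 with the block, and *Mcl1* from -0.0124 to 0.22.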
